A study of Mus musculus with 4 samples.

Results

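The nuclear pore complex and its transport receptors carry every protein and RNA that crosses the nuclear envelope. Their genes were taken by symbol: the numbered nucleoporins, importin alpha adaptors (Kpna), importins (Kpnb1, Ipo), transportins (Tnpo), exportins (Xpo) and Ran-binding proteins (Ranbp), together with Ran, Rangap1, Rcc1, Pom121, Ndc1, Seh1l and Aaas. The pattern found 155 probe sets for 58 genes, out of 34945 probe sets with 1 gene symbol for 18193 genes. The rule reads symbols only and no measured value. The nuclear basket gene Tpr was also on the list and is not analysed here.

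The arrays compared mouse thymocytes of the CD4+CD8+ double-positive stage, the stage at which T-cell receptor alpha genes are rearranged. One group was double-positive cells from the normal thymus (2 arrays), and the other was double-positive cells from a peripheral thymoma that over-expressed Notch1-IC, the active intracellular part of the Notch1 receptor (2 arrays), as a model of T-cell acute lymphoblastic leukaemia. All animals had the C57BL/6 background, and the labels give the genotype as WT for the normal thymus and as T-ALL for the tumour. The labels give neither the driver of Notch1-IC nor the animals' ages, and nothing in them says whether different mice gave the 2 arrays of each group, so p-values measure only the spread between these arrays. One label field names the tumour as the sample type of all 4 arrays, and the groups were taken from the titles. The site (thymus or periphery) and the transformation changed together and cannot be told apart.

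Values are log2 of the deposited intensity of 1 colour Affymetrix Mouse 430 2.0 arrays, and a difference is always tumour minus normal. A gene was called where limma's moderated test, with a variance prior that follows the level, gave an adjusted p under 0.05 over all 18193 genes, each represented by its brightest probe set. Notch1 rose by 2.62 ± 0.07 (SE, n = 2 arrays per group, adjusted p = 3.09e-08 by limma), from 10.11 and 10.10 on the normal arrays to 12.80 and 12.65 on the tumour arrays. Of 15 double-positive thymocyte genes, 13 were measured and all 13 were above background on every array, but their summed intensity was 73969 to 74229 on the normal arrays and 33549 to 34170 on the tumour arrays. The summed intensity of 13 measured macrophage and monocyte genes was 120.7 to 161.8 on the normal arrays and 2213 to 2398 on the tumour arrays. Of those genes, 7 (Cd14, Cd163, C1qa, C1qc, Fcgr3, Mrc1 and Marco) were at background on both normal arrays and 11 were above it on both tumour arrays. The 12 neutrophil genes summed to 215.1 to 276.1 and to 2208 to 2248, respectively. The ratio of the 3' to the 5' probe set of actin, a measure of RNA integrity and labelling, was 1.28 and 1.20 on the normal arrays and 2.46 and 2.53 on the tumour arrays. The part of these cell type and RNA differences in the results below was not tested, and in bulk RNA a change in the share of a cell type and a change in RNA per cell cannot be told apart.

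The pore is a ring of nucleoporins. An outer ring of Y-shaped complexes and an inner ring form the scaffold, membrane nucleoporins anchor it, and a central channel lined with phenylalanine-glycine repeats lets only small molecules or receptor-bound cargo pass. Filaments reach into the cytoplasm and a basket reaches into the nucleus. Import receptors release cargo when they bind Ran-GTP in the nucleus, and exportins bind cargo together with Ran-GTP and release it when the GTP is hydrolysed in the cytoplasm. Dividing and fast-growing cells have a large traffic of ribosomal proteins, histones and ribosomal subunits through the pore.

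A promoter sequence in RefSeq (GRCm38.p6) was matched for 47 of the 58 genes by Entrez gene identifier, and 11 were not matched. The 250 bases before the start of transcription were searched on both strands for CACGTG, a palindrome and the E-box core that basic helix-loop-helix factors such as Myc bind. It was present in 7 genes, Ipo7, Nup188, Nup54, Nup93, Ran, Ranbp2 and Tnpo2. All 7 were among the 25 genes with a promoter that were called higher in the tumour, and 0 were among the other 22. Over all tested genes with a promoter, 8.74% of 14368 held the motif in the same window, as did 6.02% of all 32851 promoters. These counts are a description of the letters in these windows, and no test was made on them. The share among all genes called higher was not counted. The calls rest on the brightest probe sets. Averaged over all probe sets, Nup54 (-0.38), Ranbp2 (-0.51) and Tnpo2 (-0.42) differed below 0. Ipo7 (0.45), Nup188 (0.80), Nup93 (0.71) and Ran (0.87) stayed above it. The 5 windows below show the motif in a gene of the Ran cycle, an importin, a pair of inner ring nucleoporins and a cytoplasmic filament nucleoporin. Each is 100 bases long, 5′ to 3′ in the direction of the gene, with CACGTG in capitals.
Ran (chr5:129020018-129020117, plus strand): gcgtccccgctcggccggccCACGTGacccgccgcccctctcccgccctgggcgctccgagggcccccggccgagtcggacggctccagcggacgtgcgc
Ipo7 (chr7:110018158-110018257, plus strand): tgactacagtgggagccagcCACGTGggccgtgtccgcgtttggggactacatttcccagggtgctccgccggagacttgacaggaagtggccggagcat
Nup188 (chr2:30286316-30286415, plus strand): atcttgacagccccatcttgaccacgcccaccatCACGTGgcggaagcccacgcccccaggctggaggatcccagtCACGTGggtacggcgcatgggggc
Nup93 (chr8:94214369-94214468, plus strand): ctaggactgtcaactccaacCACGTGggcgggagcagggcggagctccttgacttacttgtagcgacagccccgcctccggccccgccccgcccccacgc
Ranbp2 (chr10:58446745-58446844, plus strand): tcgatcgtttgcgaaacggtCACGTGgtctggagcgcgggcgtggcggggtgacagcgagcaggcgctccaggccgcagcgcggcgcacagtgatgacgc
The motif began 118 bases before the start in Ran, 137 in Ipo7, 175 in Nup93 and 87 in Ranbp2. Nup93 had 2 promoters, and the window shown is from promoter 1. Nup188 had 2 copies, the nearer one 24 bases before the start. The ETS core CCGGAAG was found on either strand in 8 of the 47 genes, 6 of the 25 called higher and 2 of the other 22, beside 11.8% of tested genes. GCATGCGC, the core of the site of nuclear respiratory factor NRF1, was found in 6 genes, 2 of the 25 and 4 of the 22, beside 3.98% of tested genes. The CCAAT box was found in 20 genes, 9 of the 25 and 11 of the 22, beside 39.4% of tested genes.

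Of the 58 genes, 29 rose in the tumour cells, 3 fell and 26 did not pass the test. The called share of 50% on the higher side stands beside 17.3% of all genes, and the 5.17% on the lower side beside 12.4% of all genes. The median log2 difference of the 58 genes was 0.47, and that of all genes was 0.09. Genes at background rarely pass the test, and 54 of the 58 were above background on all 4 arrays, among them all 32 called genes. Of the 9315 genes with that property, 29.1% were called higher and 22.5% lower, with a median difference of 0.08. The 54 transport genes had a median of 0.48. Both tumour arrays lay above both normal arrays for 36 of the 58 genes and below them for 9, beside 33.7% and 26.4% of all genes.

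The rises were of moderate size. The median rise of the 29 called genes was 0.71, against 0.99 for all genes called higher. The 2 sets are unlike in level. All 29 were above background on every array, as were 2711 of the 3156 genes called higher. At 2-fold or more, 7 genes passed (Ipo4, Ipo5, Rcc1, Ndc1, Nup85, Pom121 and Xpo7) and 0 were lower, beside 8.58% of all genes higher and 4.59% lower at that size. The 3 genes that fell were Ipo9, Ranbp6 and Kpna2. With limma's default prior, which gives every gene the same prior spread, 5 of the 58 were called higher (Ipo4, Ipo5, Rcc1, Nup85 and Pom121) and 0 lower, beside 4.17% and 2.2% of all genes, and 25 and 2 had an unadjusted p under 0.05.

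**Figure D1:**
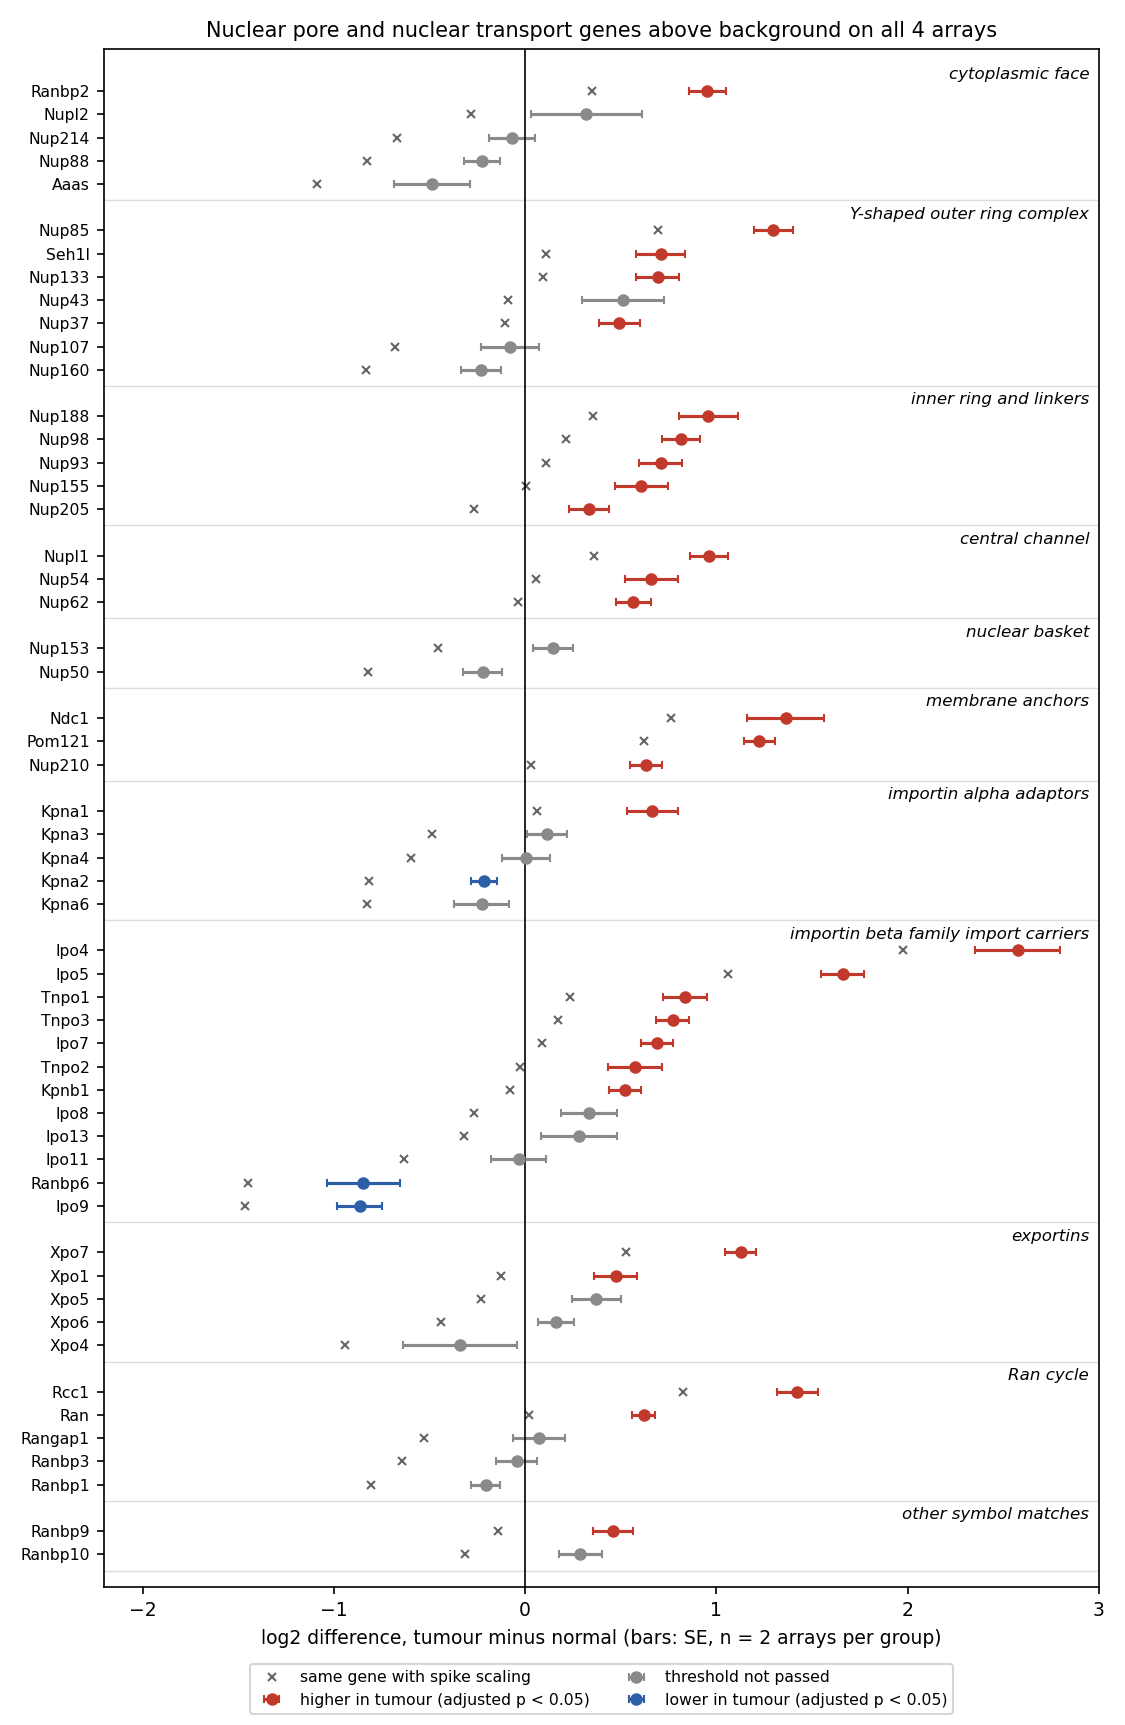
Log2 difference, tumour minus normal, of the 54 genes above background on all 4 arrays, grouped by role. Points are the fitted differences with their SE (n = 2 arrays per group), coloured by call, and crosses are the same genes after scaling to the hybridization controls, which shifts every point left by 0.60. All genes of the inner ring, the central channel and the membrane anchors were called higher on the deposited scale, and among these Nup205 and Nup62 cross 0 after the rescaling.

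How the arrays are scaled sets the direction of the smaller changes. The deposited values place the 14 bacterial hybridization controls that are added in fixed amount (BioB, BioC and BioD) 0.60 higher on the tumour arrays. When the arrays were scaled so that these controls were equal, the median of all genes moved from 0.09 to -0.51 and that of the 58 transport genes from 0.47 to -0.13. The split became 9 higher and 19 lower, beside 7.31% and 28.9% of all genes. Of the 29 genes called higher, 22 kept a difference above 0, and 7 fell below it: Kpnb1, Nup205, Nup37, Nup62, Ranbp9, Tnpo2 and Xpo1. The 3 genes that fell were called lower on both scales. The distance of the transport genes from the median of all genes does not depend on this choice.

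**Figure D2:**
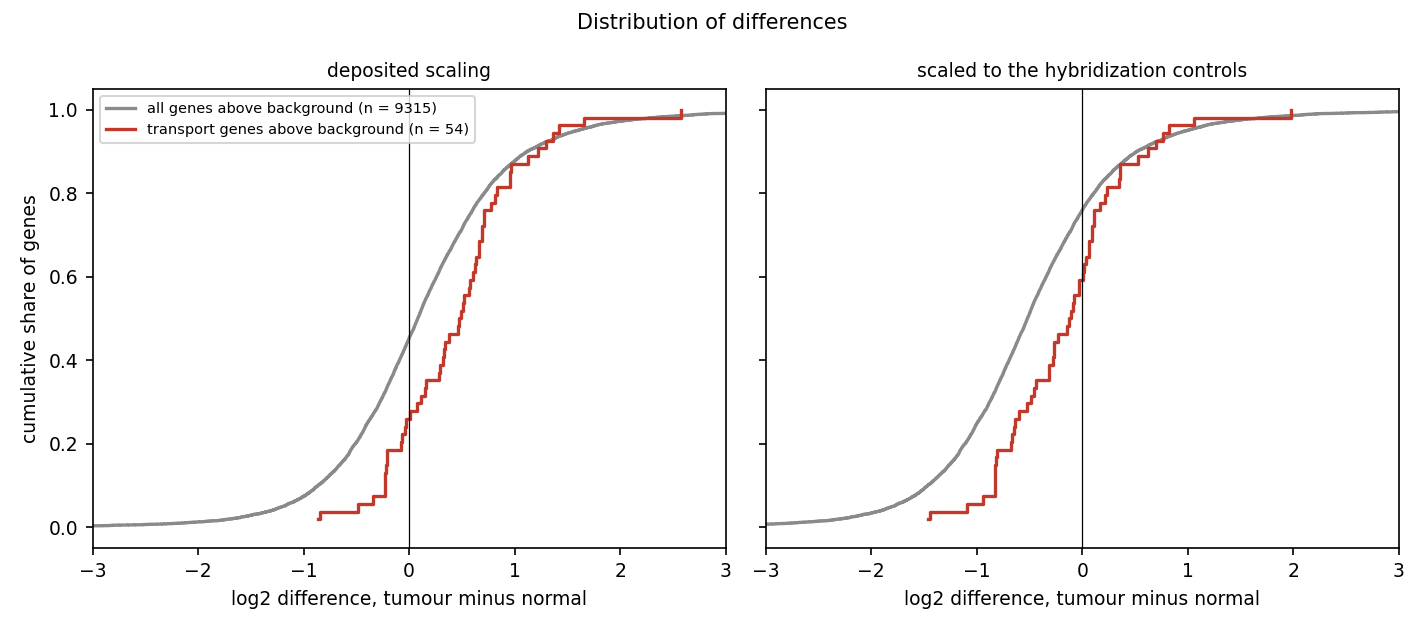
Cumulative share of genes by log2 difference, tumour minus normal, for the 9315 genes above background on all 4 arrays (grey) and the 54 transport genes among them (red), on the deposited scale (left) and scaled to the hybridization controls (right). The red curve lies to the right of the grey curve through the middle of both panels, and the curves meet above a difference of about 1 on the deposited scale.

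The Ran cycle supplies the energy and the direction of transport. Of 5 genes, 2 rose, 0 fell and 3 did not pass, beside 29.1% higher and 22.5% lower among all genes above background on every array. Rcc1, the chromatin-bound exchange factor that loads Ran with GTP, was at 7.94 and 8.04 on the normal arrays and at 9.43 and 9.40 on the tumour arrays. It rose by 1.42 ± 0.11 (SE, 2.68-fold, adjusted p = 7.52e-06 by limma). Ran, the GTPase itself, was at 12.35 and 12.47 against 13.05 and 13.01, a rise of 0.62 ± 0.06 (adjusted p = 3.70e-05). The groups of neither gene overlapped, and the replicates of each lay close together. On their brightest probe sets, Rangap1 and Ranbp1, which help Ran hydrolyse its GTP in the cytoplasm, gave no call. A further Rangap1 set was called higher, with a difference of 0.88. Rangap1, the GTPase activator at the pore's outer face, was at 8.74 and 8.71 against 8.99 and 8.60, so the groups overlapped (difference 0.07 ± 0.14, adjusted p = 0.761). Ranbp1, which assists that reaction, was at 11.50 and 11.35 against 11.24 and 11.19, a difference of -0.21 ± 0.07 (adjusted p = 0.0687). Without normal replicate 2 it was called lower (difference -0.28, adjusted p = 0.0390). Ranbp3, a cofactor of export by Xpo1, differed by -0.04. After scaling to the hybridization controls Ran lay at 0.02 and Rcc1 at 0.82. On that scale 1 gene of the 5 was called higher and 3 lower, beside 7.31% and 28.9% of all genes.

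Import receptors of the importin beta family bind cargo directly or through an adaptor. Of 12, 7 rose, 2 fell and 3 did not pass, beside 29.1% higher and 22.5% lower among all genes above background on every array. After scaling to the hybridization controls 2 were called higher and 3 lower, beside 7.31% and 28.9% of all genes. Ipo4, which imports histones and some ribosomal proteins, had the largest difference of the 58 genes. It was at 5.0 and 5.36 on the normal arrays and at 7.64 and 7.87 on the tumour arrays, a rise of 2.58 ± 0.22 (SE, 5.96-fold, adjusted p = 1.98e-05 by limma). Ipo5, a carrier of ribosomal proteins and histones, was at 9.42 and 9.09 against 10.96 and 10.88, a rise of 1.66 ± 0.11 (3.16-fold, adjusted p = 4.16e-06). Both genes were lower on both normal arrays than on both tumour arrays, with a gap several times the distance between replicates. Kpnb1, the importin beta that works with the alpha adaptors, was at 9.75 and 9.66 against 10.21 and 10.26, a rise of 0.52 ± 0.08 (adjusted p = 0.00103), and lay at -0.08 after scaling to the hybridization controls.

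The carriers Tnpo1 (0.83 ± 0.12), Tnpo3 (0.77 ± 0.09), Ipo7 (0.69 ± 0.08) and Tnpo2 (0.57 ± 0.14) also rose. Tnpo1 and Tnpo2 are transportins for RNA-binding proteins, Tnpo3 carries splicing factors rich in serine and arginine, and Ipo7 carries ribosomal proteins. Tnpo2 lost its call without normal replicate 1 (difference 0.55, adjusted p = 0.0721) or without tumour replicate 2 (0.45, adjusted p = 0.102), and lay at -0.03 after scaling to the hybridization controls. Ipo9, another carrier of histones and ribosomal proteins, moved the other way on its brightest set. It was at 8.56 and 8.58 on the normal arrays and at 7.67 and 7.73 on the tumour arrays, and fell by 0.87 (SE 0.12, adjusted p = 0.000395). A 2nd Ipo9 set was also called lower, by 0.76. The 3rd was at 6.65 and 6.60 against 7.41 and 6.97. Its difference of 0.57 was not called (adjusted p = 0.0776 over probe sets by limma). Ranbp6, a close relative of Ipo5, was at 7.21 and 7.54 against 6.45 and 6.59 and fell by 0.85 (SE 0.19, adjusted p = 0.00716), a call that was lost without normal replicate 2 (difference -0.68, adjusted p = 0.0840). Ipo5 and Ranbp6 therefore differed in opposite directions, and no test was made of the contrast between them. Ipo8 (0.34), Ipo13 (0.28) and Ipo11 (-0.03) did not pass the test, and Ipo8 did without normal replicate 2 (difference 0.51, adjusted p = 0.0487).

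**Figure D3:**
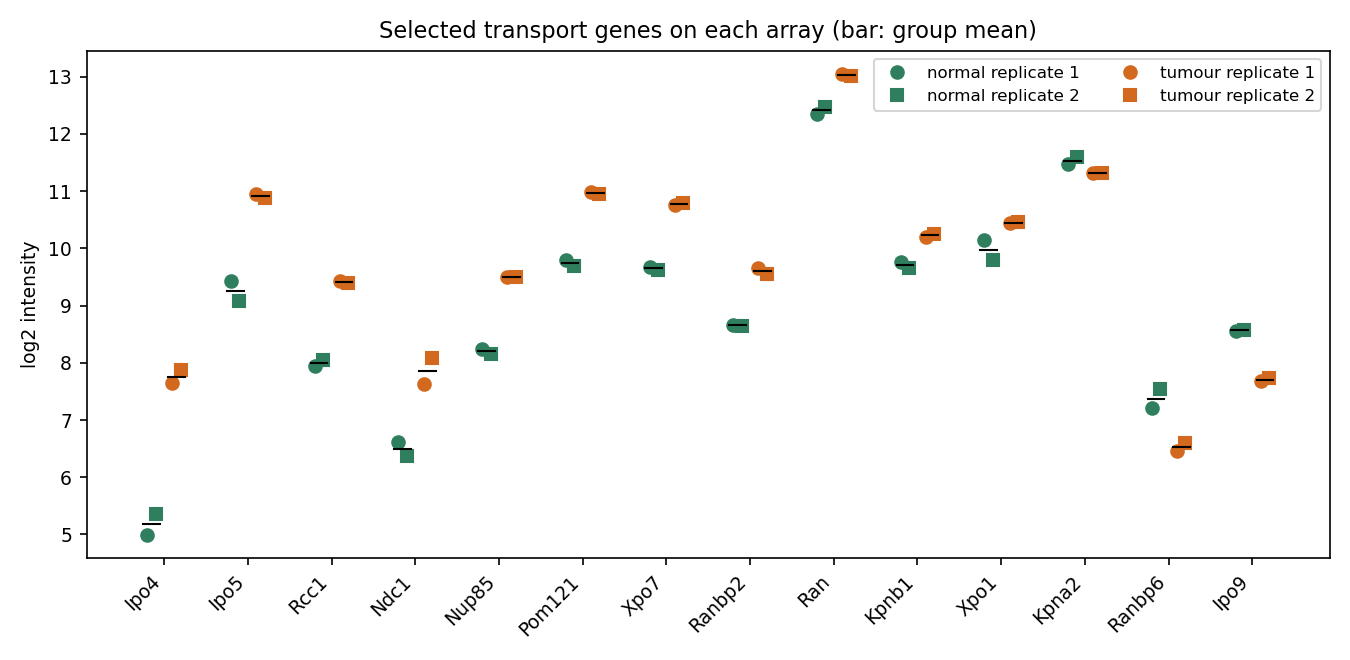
Log2 intensity of 14 transport genes on each of the 4 arrays, normal in green and tumour in orange, with bars at the group means. Ipo4 to Xpo1 lay higher on both tumour arrays than on both normal arrays on the deposited scale (Kpnb1 and Xpo1 turn below 0 when scaled to the hybridization controls), and Kpna2, Ranbp6 and Ipo9 lay lower; levels of different genes come from different probes and are not comparable.

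The importin alpha adaptors, which recognise the classical nuclear localization signal and hand cargo to Kpnb1, changed little as a group. Of 6, 1 rose and 1 fell, beside 17.3% and 12.4% of all genes, with a median difference of 0.05. After scaling to the hybridization controls 0 were called higher and 4 lower, beside 7.31% and 28.9% of all genes. Kpna1 was at 8.09 and 7.87 on the normal arrays and at 8.75 and 8.54 on the tumour arrays, a rise of 0.67 ± 0.13 (SE, adjusted p = 0.00378 by limma) that missed the threshold without tumour replicate 1 (difference 0.56, adjusted p = 0.05001). Kpna2, the adaptor known for its abundance in dividing cells, was at 11.48 and 11.59 against 11.33 and 11.32. Its fall of 0.21 (SE 0.07, 1.16-fold, adjusted p = 0.0415) was the smallest difference called. The call was lost without normal replicate 2 (adjusted p = 0.190), tumour replicate 1 (adjusted p = 0.180) or tumour replicate 2 (adjusted p = 0.195). Kpna3 (0.11), Kpna4 (0.00) and Kpna6 (-0.23) did not pass. Kpna7, the adaptor of oocytes and early embryos, was at background on all 4 arrays.

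Of the 6 exportins, 2 rose and 4 did not pass the test, beside 17.3% higher and 12.4% lower among all genes. After scaling to the hybridization controls 1 was called higher and 2 lower, beside 7.31% and 28.9% of all genes. Xpo7, an exportin with a broad set of cargoes, was at 9.68 and 9.62 on the normal arrays and at 10.75 and 10.80 on the tumour arrays, a rise of 1.13 ± 0.08 (SE, 2.18-fold, adjusted p = 5.36e-06 by limma). Xpo1, the main receptor of proteins with a leucine-rich export signal and of ribosomal subunits, was at 10.15 and 9.80 against 10.45 and 10.45, a rise of 0.47 ± 0.11 (adjusted p = 0.00958). Another Xpo1 set, nearly as bright, was at 9.85 and 9.60 against 9.81 and 9.91, so the groups overlapped. That set differed by 0.13 (adjusted p = 0.467 over probe sets by limma). On the brightest set, the lower normal value of Xpo1 was replicate 2. Its call was lost without normal replicate 2 (difference 0.30, adjusted p = 0.0513), tumour replicate 1 (adjusted p = 0.0755) or tumour replicate 2 (adjusted p = 0.0807), and its difference was -0.13 after scaling to the hybridization controls. Xpo5, the exporter of precursor microRNAs, was at 7.78 and 7.77 against 8.08 and 8.23. The groups did not overlap, but its difference of 0.37 ± 0.13 missed the threshold (adjusted p = 0.0564). Xpo6, which exports actin with profilin, differed by 0.16 and Xpo4 by -0.34. The probe set that represents Ranbp17, a relative of Xpo7, was at background on all 4 arrays, and 1 of its further sets was above background on tumour replicate 1 only.

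In the pore itself, the scaffold and its anchors carried most of the calls. All 5 genes of the inner ring and its linkers rose, with a median difference of 0.71. Of all genes above background on every array, 29.1% were called higher. Nup188 was at 7.53 and 7.16 on the normal arrays and at 8.29 and 8.31 on the tumour arrays, a rise of 0.96 ± 0.16 (SE, adjusted p = 0.00108 by limma). Nup98, whose precursor also yields the outer ring subunit Nup96, was at 8.74 and 8.61 against 9.51 and 9.48, a rise of 0.81 ± 0.10 (adjusted p = 0.000182). Nup93, the linker that organises the inner ring, was at 8.22 and 8.13 against 8.93 and 8.84, a rise of 0.71 ± 0.11 (adjusted p = 0.000895). In all 3 genes the tumour replicates lay within 0.1 of each other. Nup155 rose by 0.61 and Nup205 by 0.33, both with less margin. A further Nup155 set, above background on every array, was at 7.27 and 7.17 against 6.88 and 6.84, a difference of -0.36. Nup155 lost its call without normal replicate 1 (adjusted p = 0.0598) or tumour replicate 2 (adjusted p = 0.0743). Nup205 lost its call without normal replicate 2 (difference 0.25, adjusted p = 0.187), tumour replicate 1 (adjusted p = 0.122) or tumour replicate 2 (adjusted p = 0.173), and lay at -0.27 after scaling to the hybridization controls.

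The 3 membrane anchors also rose, beside the same 29.1%, with a median difference of 1.23. Pom121 was at 9.79 and 9.69 on the normal arrays and at 10.99 and 10.95 on the tumour arrays, a rise of 1.23 ± 0.08 (SE, 2.34-fold, adjusted p = 3.31e-06 by limma). Ndc1 was at 6.62 and 6.37 against 7.62 and 8.09, a rise of 1.36 ± 0.20 (2.57-fold, adjusted p = 0.000579). Nup210 was at 10.20 and 10.15 against 10.88 and 10.74, a rise of 0.63 ± 0.08 (adjusted p = 0.000256). On these sets the tumour values of Ndc1 were further apart than those of the other anchors, and no group overlapped. All 3 kept a difference above 0 after scaling to the hybridization controls, and Nup210 lay closest to 0 there, at 0.03. A further Ndc1 set, above background on every array, was at 6.66 and 6.40 against 6.45 and 6.01. Its difference on the deposited scale was -0.30 (adjusted p = 0.458 over probe sets by limma).

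The Y-shaped complex builds the outer rings and also sits at kinetochores in mitosis. Of its 7 genes, 4 rose and 3 did not pass, with a median of 0.51. Among all genes above background on every array, 29.1% were called higher and 22.5% lower. Nup85 was at 8.25 and 8.16 on the normal arrays and at 9.50 and 9.49 on the tumour arrays, a rise of 1.30 ± 0.10 (SE, 2.46-fold, adjusted p = 1.02e-05 by limma). Seh1l, which binds Nup85 and also serves in a nutrient-sensing complex, was at 8.74 and 9.08 against 9.53 and 9.70, a rise of 0.71 ± 0.13 (adjusted p = 0.00203). Nup133 was at 8.19 and 8.38 against 8.95 and 9.0, a rise of 0.69 ± 0.11 (adjusted p = 0.00116). This was the 1 set called of the 6 for Nup133. The next brightest was at 7.97 and 7.94 against 7.93 and 7.97, a difference of -0.004. Nup85 rose most, and no test was made between subunits. After scaling to the hybridization controls 1 gene of the complex was called higher and 2 lower, beside 7.31% and 28.9% of all genes. Nup37 rose by 0.49, lost its call without tumour replicate 1 (difference 0.42, adjusted p = 0.0664) and lay at -0.11 after scaling to the hybridization controls. Nup107 (-0.08) and Nup160 (-0.23), after which the complex is named, did not pass, and neither did Nup43 (0.51 ± 0.22, adjusted p = 0.116), whose tumour replicates lay at 7.80 and 7.20. Nup43 passed without tumour replicate 2 (difference 0.81, adjusted p = 0.0323).

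The central channel genes Nup62, Nup54 and Nupl1 encode the repeat-bearing trimer of the pore's middle. All 3 rose, beside 29.1% of all genes above background on every array. Nupl1 was at 10.09 and 10.39 on the normal arrays and at 11.19 and 11.22 on the tumour arrays, a rise of 0.96 ± 0.10 (SE, adjusted p = 6.58e-05 by limma). Nup54 was at 8.27 and 8.69 against 9.12 and 9.16, a rise of 0.66 ± 0.14 (adjusted p = 0.00540), and lost its call without tumour replicate 2 (difference 0.64, adjusted p = 0.0579). Nup62 was at 11.43 and 11.17 against 11.93 and 11.81, a rise of 0.57 ± 0.09 (adjusted p = 0.00110) that turned to -0.03 after scaling to the hybridization controls. The brightest probe sets of all 3 carry the suffix _x_at or _s_at, which Affymetrix gives to sets whose probes can match several transcripts. Over the remaining probe sets, the brightest gave 0.16 for Nupl1 (adjusted p = 0.337), 0.22 for Nup62 (adjusted p = 0.0858) and -0.30 for Nup54 (adjusted p = 0.0990). A dimmer Nupl1 set without such a suffix was called higher, at 6.79 and 7.03 against 7.75 and 7.91. Its difference was 0.92 (adjusted p = 0.00259 over probe sets by limma).

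The peripheral parts of the pore gave 1 call. Of 5 genes at the cytoplasmic face, Ranbp2 rose and the other 4 did not pass, beside 29.1% called higher among all genes above background on every array. Ranbp2, also known as Nup358, forms the cytoplasmic filaments and acts as a SUMO ligase. It was at 8.67 and 8.65 on the normal arrays and at 9.66 and 9.56 on the tumour arrays, a rise of 0.95 ± 0.10 (SE, adjusted p = 5.52e-05 by limma). A further Ranbp2 set fell by 1.86 (adjusted p = 0.000265 over probe sets by limma). Another was at 9.09 and 8.27 against 8.81 and 8.70, a difference of 0.08. The direction of Ranbp2 therefore depends on the set. Nup214 (-0.07) and Nup88 (-0.23), which form a complex that docks export cargo, and Nupl2 (0.32) did not pass. Aaas was at 7.67 and 7.71 against 6.91 and 7.50, a difference of -0.49 ± 0.20 (adjusted p = 0.102) that passed without tumour replicate 2 (difference -0.78, adjusted p = 0.0206). At the nuclear basket, Nup153 was at 9.86 and 10.10 against 10.04 and 10.21, so the groups overlapped (difference 0.15 ± 0.10, adjusted p = 0.365). Nup50, which helps to recycle importin alpha, differed by -0.22 (adjusted p = 0.142). After scaling to the hybridization controls 3 genes of the cytoplasmic face and both basket genes were called lower, beside 28.9% of all genes. Ranbp2 stayed higher on its brightest set. No test was made of a difference between these groups and the scaffold or channel.

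The symbol pattern also took in 4 genes with other roles or of other tissues. Ranbp9, a scaffold of a ubiquitin ligase complex, was at 9.35 and 9.63 on the normal arrays and at 9.94 and 9.97 on the tumour arrays, a rise of 0.46 ± 0.11 (SE, adjusted p = 0.00857 by limma). Its call was lost without normal replicate 1 (difference 0.32, adjusted p = 0.0607), tumour replicate 1 (adjusted p = 0.0625) or tumour replicate 2 (adjusted p = 0.0770), and it lay at -0.14 after scaling to the hybridization controls. Its relative Ranbp10 (0.29, adjusted p = 0.0871) did not pass. Ranbp3l was above background on 1 normal array, and Nup210l, a relative of the anchor Nup210, was at background on all 4 arrays.

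Probe sets of a gene did not always move together. Of the 58 genes 12 had 1 probe set and 46 had several, up to 8. Of the 155 probe sets, 142 were above background on at least 1 array and 114 on all 4. In a fit over all 45037 probe sets that are not controls, 49 of the 155 were higher, 8 lower and 98 neither, beside 11.3% of all probe sets higher and 11.5% lower. Among 37 genes with several probe sets above background on all arrays, 19 had differences of both signs.

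In 3 genes, probe sets were called in opposite directions. Ranbp2 had a set that rose by 0.95 and another at 7.38 and 7.66 on the normal arrays and 5.43 and 5.89 on the tumour arrays, which fell by 1.86 (SE 0.23, adjusted p = 0.000265 over probe sets by limma). Nup54 had a set that rose by 0.66 and another that fell by 0.53 (adjusted p = 0.0472). Ranbp9 had a set of the _x_at kind that rose by 0.46, while its other set was at 8.94 and 8.66 against 8.03 and 7.90 and fell by 0.83 (adjusted p = 0.00149). Which part of each transcript these sets cover was not analysed here.

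Other genes had further sets that agreed or added calls. All 5 Ran probe sets above background on every array rose, by 0.55 to 1.26, and the one without an _x_at suffix rose most. The 2 sets of Ipo4 rose by 2.58 and 1.57, those of Nup85 by 1.30 and 1.94 and those of Pom121 by 1.23 and 0.86. Kpnb1 had 3 of 4 sets called higher, by 0.52 to 1.13. Seh1l had 3 of 7 sets called higher, but its brightest set with no _x_at or _s_at suffix differed by -0.14. Further sets were called higher for Rangap1 (0.88), Nup153 (0.79), Nup43 (1.17) and Ranbp3 (0.99), whose brightest sets were not called. A dimmer set of Ipo11 fell by 2.01 and was above background on 1 of the 2 tumour arrays. Xpo7 had 8 sets, of which 5 were at background on all arrays and 2 of the other 3 rose. Averaged over all of its probe sets, those at background included, the difference turned below 0 for 6 of the genes called higher, Xpo7 (-1.13), Nup210 (-0.64), Ranbp2 (-0.51), Tnpo2 (-0.42), Nup54 (-0.38) and Ranbp9 (-0.19).

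**Figure D4:**
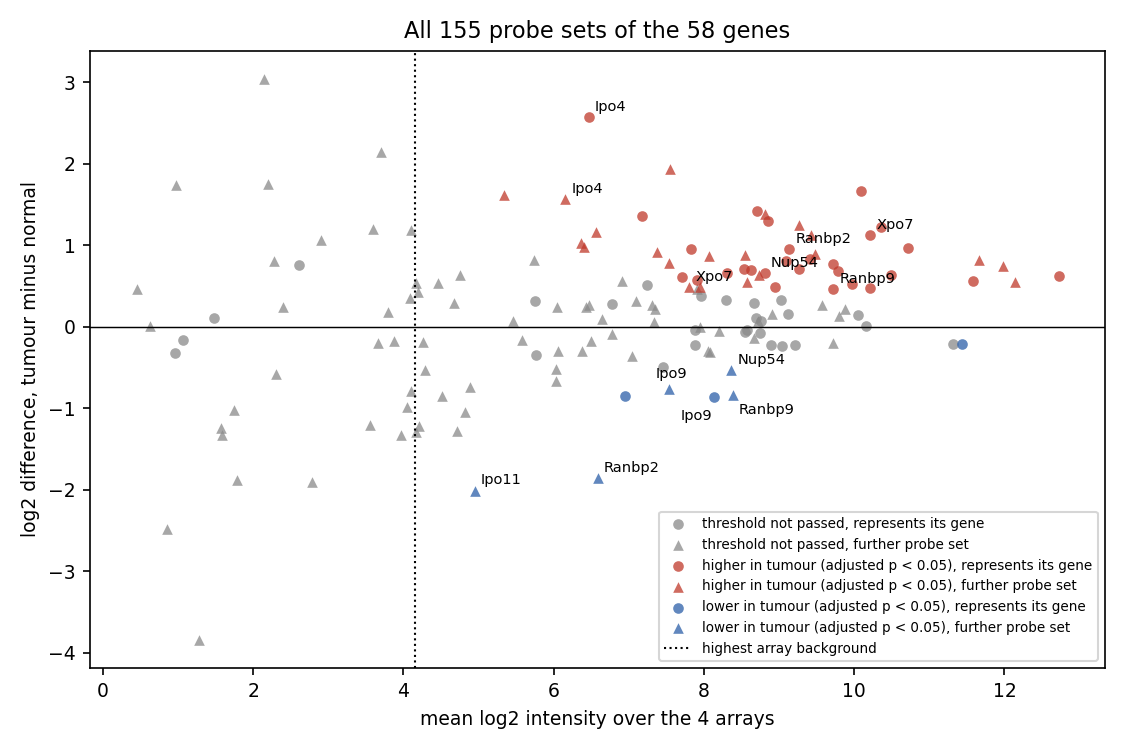
Log2 difference, tumour minus normal, of each of the 155 probe sets against its mean log2 intensity, coloured by its call over all probe sets; circles are the sets that represent their genes and triangles are further sets. The 49 sets called higher lie mostly above a mean of 6, and the large differences of both signs on the left belong to sets with a mean below or near the highest array background (dotted line), and the dimmest set called is that of Ipo11, which was above background on 1 of the 2 tumour arrays.

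The transport genes outside the symbol pattern were described with 2 lists. Of 12 measured genes of 15 further transport factors and pore components, 8 rose and 4 fell, beside 29.1% higher and 22.5% lower among all genes above background on every array, with a median difference of 0.77. Xpot, the exportin of transfer RNA, was at 7.82 and 8.00 on the normal arrays and at 9.62 and 9.68 on the tumour arrays, a rise of 1.74 ± 0.11 (SE, 3.33-fold, adjusted p = 2.88e-06 by limma). Its probe sets, whatever their level, differed by -0.13 to 2.41. Heatr3, which escorts a ribosomal protein into the nucleus, was at 6.42 and 6.39 against 7.78 and 8.17, a rise of 1.57 ± 0.18 (adjusted p = 0.000125). Snupn, the adaptor that imports spliceosomal particles, was at 5.60 and 5.50 against 7.27 and 6.93, a rise of 1.55 ± 0.23 (adjusted p = 0.000553). This was an _x_at set, and another Snupn set differed by -0.43, so the direction of Snupn depends on the set. Cse1l, the exportin that returns importin alpha to the cytoplasm, rose by 0.38 and lay at -0.22 after scaling to the hybridization controls. The outer ring subunit Sec13, which also coats secretory vesicles, fell by 0.86, and Hikeshi, the importer of a heat shock protein, fell by 1.47. After scaling to the hybridization controls 4 genes of this list were called higher and 4 lower.

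Of 24 measured genes of 27 messenger RNA export factors, 8 rose, 5 fell and 11 did not pass, beside 29.1% higher and 22.5% lower among all genes above background on every array. The median difference was -0.02, beside 0.09 for all genes. Thoc6, a subunit of the complex that couples transcription to export, was at 8.73 and 8.64 on the normal arrays and at 7.83 and 7.98 on the tumour arrays, and fell by 0.78 (SE 0.12, adjusted p = 0.000812 by limma). Ddx19b, the helicase that strips export factors from the RNA at the cytoplasmic face, was at 6.80 and 7.01 against 7.68 and 7.62, a rise of 0.75 ± 0.16 (adjusted p = 0.00564). Its probe sets, whatever their level, differed by -0.12 to 1.54. Rae1, which binds Nup98 at the pore, was at 9.30 and 9.11 against 8.46 and 8.52 and fell by 0.71 (SE 0.11, adjusted p = 0.000770). Another of its probe sets differed by 1.85, so the direction of Rae1 depends on the set. Nup98 rose by 0.81, and no test was made of the contrast between them. After scaling to the hybridization controls 0 genes of this list were called higher and 18 lower.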

How the data were processed

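Double-positive thymocytes were measured on 4 Affymetrix Mouse 430 2.0 arrays, 2 per group, from 100 ng of total RNA per the labels' protocols. The deposited values are intensity on a linear scale (0.08 to 19270.2); per the submitters' processing notes the authors used RMA, whose version is not given in the sources used here. Values were turned to log2 with no offset. Of 45037 probe sets that are not controls, 34945 had 1 gene symbol in the platform annotation, 932 had several and 9160 none; genes were named only from the first kind. Where a gene had several probe sets, the brightest on average over the 4 arrays stood for it.

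The test was limma 3.58.1 in R 4.3.3 (lmFit, eBayes with trend and robust prior, Benjamini-Hochberg over all genes, threshold 0.05). The prior follows the level because the replicate SD fell with the level, from a median of 1.31 among the dimmest genes to 0.084 among the brightest (first and last quartile). Background was, per array, the highest of 27 bacterial controls (12.28 to 17.8 intensity units); a probe set under it is called at background. With 2 arrays per group an exact permutation test cannot pass the threshold. The number of arrays limits the precision.

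Full values were given for Ran, Rangap1, Rcc1, Kpnb1, Kpna2, Xpo1, Ranbp1 and Ranbp2, for up to 3 called genes of each role with the largest difference, among those whose higher group averaged 7 or more on the log2 scale, and for up to 3 called genes of each further list; Ranbp6, Xpo5, Nup43 and Aaas were given in full after their values were seen. The genes, lists and test were chosen with earlier results of these data known. Alternatives covered the prior, scaling, filters, thresholds, probe set choice, a replicate block and each array left out.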

Additional observations from a re-analysis of the deposited data

How the results depend on the processing

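Of the 32 called genes, 22 kept their call without any single array and 10 lost it without some array. Leaving out each array in turn gave 24 to 28 member genes higher and 2 to 3 lower, 39 to 44 probe sets higher and 5 to 8 lower (5 without normal replicate 2 or tumour replicate 1), and a median difference of 0.38 to 0.55. Median subtraction, renewed quantile normalization, an offset of 16 and filters at the 30th or 50th percentile left 29 to 31 genes higher and 3 to 4 lower.

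Limma's default prior called 5 member genes higher and 0 lower (25 and 2 at an unadjusted p under 0.05), and 0 probe sets in either direction (39 and 12 at an unadjusted p under 0.05), as it did for 0 of all 45037 probe sets. By role it called higher 0 genes of the cytoplasmic face, inner ring, central channel, importin alpha adaptors, exportins and other symbol matches, 1 each of the outer ring, membrane anchors and Ran cycle, and 2 importin beta genes; 0 importin alpha and 0 importin beta genes were lower. Of the lists it called 0 mRNA export factors higher and 0 lower, and 1 further transport factor higher and 1 lower. It called 1 nuclear envelope gene higher and 0 lower, and 1 proliferation gene higher and 0 lower. Of all genes it called 4.17% higher and 2.2% lower.

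Scaling to the hybridization controls gave 9 member genes higher and 19 lower, beside 7.31% and 28.9% of all genes. It gave 15 probe sets higher and 47 lower, and a median of -0.13 for the member genes. By role, 0 inner ring, nuclear basket, importin alpha and other genes were higher. Of the cytoplasmic face, outer ring, central channel, exportins and Ran cycle, 1 gene each was higher. Of the membrane anchors and the importin beta family, 2 each were higher. Lower were 3 cytoplasmic face, 2 outer ring, 2 nuclear basket, 4 importin alpha, 3 importin beta, 2 exportin and 3 Ran cycle genes. Of the lists, 0 mRNA export, 4 further transport, 1 nuclear envelope and 3 proliferation genes were higher. In the same order, 18, 4, 14 and 15 were lower. Of the 19 genes whose difference went from above to below 0, 7 were called on neither scale; the others were Kpna3 (-0.49), Kpna4 (-0.60), Kpnb1 (-0.077), Nup153 (-0.45), Nup205 (-0.27), Nup37 (-0.11), Nup62 (-0.035), Ranbp9 (-0.14), Rangap1 (-0.53), Tnpo2 (-0.026), Xpo1 (-0.13) and Xpo6 (-0.44).

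A 2-fold minimum left 7 genes higher and 0 lower, and 15 probe sets higher and 2 lower. The mean of all probe sets of a gene, those at background included, called 15 genes higher with a median of 0.24; of the 29 genes called higher with the brightest set, the sign turned for Nup210 (-0.64), Nup54 (-0.38), Ranbp2 (-0.51), Ranbp9 (-0.19), Tnpo2 (-0.42) and Xpo7 (-1.13). Without _x_at and _s_at sets the median was 0.32, and of the same 29 genes Nup54 (-0.30), Ranbp9 (-0.83) and Seh1l (-0.14) turned. Where no value shows it, the cause was not tested.

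The replicate numbers do not pair the arrays by any label, and deviations of same-numbered arrays correlated at 0.25 over 6364 genes with a mean of at least 7. A fit with the replicate number as a block gave 33 genes higher and 5 lower, and 58 probe sets higher and 12 lower. Intensities near background limit what can be said of the 4 genes not above it on all arrays.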

Other observations

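The nuclear envelope and its lamina hold the pores. Of 20 of their genes, 3 rose, 6 fell and 11 did not pass, beside 29.1% higher and 22.5% lower among all genes above background on every array, with a median difference of -0.08, against 1 higher and 14 lower after scaling to the hybridization controls. Lbr, the lamin B receptor of the inner membrane, was at 12.85 and 12.91 on the normal arrays and at 11.91 and 11.90 on the tumour arrays and fell by 0.97 (SE 0.06, adjusted p = 1.82e-06 by limma). Syne2, a linker between nucleus and cytoskeleton, was at 4.08 and 4.33 against 5.82 and 6.05, a rise of 1.73 ± 0.35 (adjusted p = 0.00433), and Tmem201 rose by 0.77 ± 0.22 (adjusted p = 0.0252). Syne2 was above background on every array by a small margin on the normal side, and another of its probe sets differed by -2.12. Lmnb1, a B-type lamin, differed by -0.09 and did not pass.

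Of 23 measured proliferation genes, 7 rose, 7 fell and 9 did not pass, beside the same 29.1% and 22.5%, with a median difference of 0.01, against 3 higher and 15 lower after scaling to the hybridization controls. Mki67, a marker of cycling cells, was at 10.05 and 9.96 on the normal arrays and at 12.08 and 11.87 on the tumour arrays, a rise of 1.97 ± 0.09 (SE, adjusted p = 3.08e-07 by limma). Mcm2, a subunit of the replicative helicase, was at 9.14 and 9.74 against 11.17 and 11.19, a rise of 1.74 ± 0.16 (adjusted p = 2.84e-05). Kif11, a mitotic spindle motor, was at 9.65 and 9.80 against 8.80 and 8.65 and fell by 1.00 (SE 0.10, adjusted p = 6.45e-05). Another Kif11 set differed by 0.30. Myc was at 7.19 and 7.32 on the normal arrays and at 10.10 and 9.95 on the tumour arrays, a rise of 2.77 ± 0.11 (adjusted p = 2.19e-07). Whether its product bound any promoter of the transport genes was not tested.

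Among probe sets with several gene symbols, 3 carry a transport gene and were left out of all counts. The one shared by Ipo4 and Tm9sf1 differed by 0.04 ± 0.13, unlike the sets of Ipo4 alone. The one shared by Xpo4 and Lats2 was higher by 0.69 ± 0.18 (adjusted p = 0.0230 by limma), and the one shared by 9630025H16Rik and Kpna4 differed by 0.25 ± 0.13.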
